A study of Mus musculus domesticus and Mus musculus domesticus x Mus musculus castaneus and Mus musculus castaneus with 10 samples.

Results

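The genes described here carry glucose from its entry into the cell to lactate or to acetyl-CoA. The list holds 36 genes for glucose uptake, the steps of glycolysis, lactate formation and export, and the gate from pyruvate into the mitochondrion. Of these, 33 were found by symbol among the 26808 genes of the count table, and Tpi1, Gapdh and Pkm were not analysed here. The list was chosen on the difference between the 2 libraries used below, in which glycolysis genes had already been seen to be higher in replicate 2. Ratios between the libraries are therefore given as a description, with no test. No member fell below 10 counts in total, and the lowest, Hkdc1, had 13 counts in replicate 1 and 43 in replicate 2.

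The libraries are 2 RNA-seq samples of undifferentiated pluripotent stem cells of CAST/EiJ (hereafter CAST), an inbred strain of the mouse subspecies M. m. castaneus. The cells were induced pluripotent stem cells, made from embryonic fibroblasts with retroviral Oct4, Sox2 and Klf4. They were grown with LIF on irradiated fibroblast feeders, which were depleted before RNA extraction. The series also lists 4 libraries of 129S6/SvEv embryonic stem cells and 4 of the F1 hybrid line 129CAS, which were not analysed here, so that no genotypes were compared. Each CAST library has its own batch entry in the labels, so that a batch difference and a replicate difference cannot be told apart. The number of CAST lines behind the 2 libraries is not given in the sources used here.

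Glycolysis splits glucose into pyruvate and yields ATP without oxygen. Lactate dehydrogenase turns pyruvate into lactate, and pyruvate dehydrogenase instead feeds it to the citrate cycle, unless pyruvate dehydrogenase kinases switch that complex off. Most steps are served by several isoenzymes, encoded by separate genes that are used in different tissues. Pluripotent stem cells are known for a high glycolytic flux, and many glycolysis genes are known targets of the hypoxia-inducible factor HIF1.

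The counts on genes summed to 14460393 in replicate 1 and 13728098 in replicate 2. At this depth 3 counts, taken as the limit of detection, equal 0.207 and 0.219 CPM (counts per 1000000 of the library's counts). The spread between the libraries, as the common biological coefficient of variation from edgeR, was 0.278. Of the 14 pluripotency markers listed, 12 were analysed and had means from 67.5 to 818 CPM. Their log2 ratios, replicate 2 over replicate 1 here and throughout, had a median of -0.18. Of the 12, 1 (Klf4) was at least 2-fold lower in replicate 2, against 4.98% of all 13824 genes with at least 10 counts in total. Pou5f1 (Oct4), Sox2 and Klf4 were also reprogramming factors, and counts from the vectors and from the cells' own genes were not separated. Among the other markers, Syt1 and Chat of neurons and Hba-a1 and Hbb-bs of red blood cells were at 0 counts in each library. The summed level was 98.7 and 56.9 CPM for the 9 neuron markers, of which Tubb3 alone had 81.2 and 44.2 CPM. It was 22.5 and 44.8 CPM for the 6 markers of muscle, of which Actn2 alone had 19.5 and 41.6 CPM. Actn2 and Myh7, the latter at 2 and 12 counts, were at least 2-fold higher in replicate 2, against 4.13% of those 13824 genes. Myh6, Tnnt2 and Ckm went the other way, with ratios of 0.686, 0.940 and 0.274. All 15 fibroblast markers were detected, with summed levels of 6731 CPM in replicate 1 and 4153 CPM in replicate 2. Fn1 alone had 2401 and 2002 CPM. Bulk samples do not show which cells these transcripts came from. Fewer fibroblasts, less RNA per fibroblast and a different level in other cells therefore cannot be told apart.

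Together the 33 genes held 1.83% ± 0.722 (SD, n = 2) of all counts. The share was 1.32% in replicate 1 (95% Wilson interval 1.31% to 1.32%) and 2.34% in replicate 2 (2.33% to 2.35%). These intervals cover counting error only, as do all intervals below. The libraries thus differed by 1.02 percentage points, on the contrast by which the list was chosen. A few abundant enzymes made up most of this difference. Aldoa accounted for 24.4% of the net difference in summed CPM, Eno1 for 14.5%, Ldha for 14.05%, Pgk1 for 12.1% and Gpi1 for 9.96%.

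Levels between genes were compared as CPM per kilobase of summed exon length. On this scale the most abundant member was Aldoa, the aldolase of muscle and most other tissues, with 882 in replicate 1 and 1738 in replicate 2. Eno1, the widely expressed enolase, followed with 610.1 and 886. Pgk1, phosphoglycerate kinase and the first ATP-forming step, had 326 and 874. The order of these 3 genes was the same within each library, although Eno1 and Pgk1 were close in replicate 2 and the ranges of neighbouring genes over the 2 libraries overlapped. Ldha, the lactate dehydrogenase subunit that favours lactate formation, had 335 and 768 CPM per kilobase, and Pgam1, phosphoglycerate mutase, had 270.4 and 412. By plain CPM, Eno1 ranked 4 among all genes in both libraries. Aldoa ranked 11 in replicate 1 and 3 in replicate 2. At the other end, Hkdc1, Slc2a4 and Pdk2 had means under 5 CPM, as the plot of levels by gene shows.

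**Figure D1:**
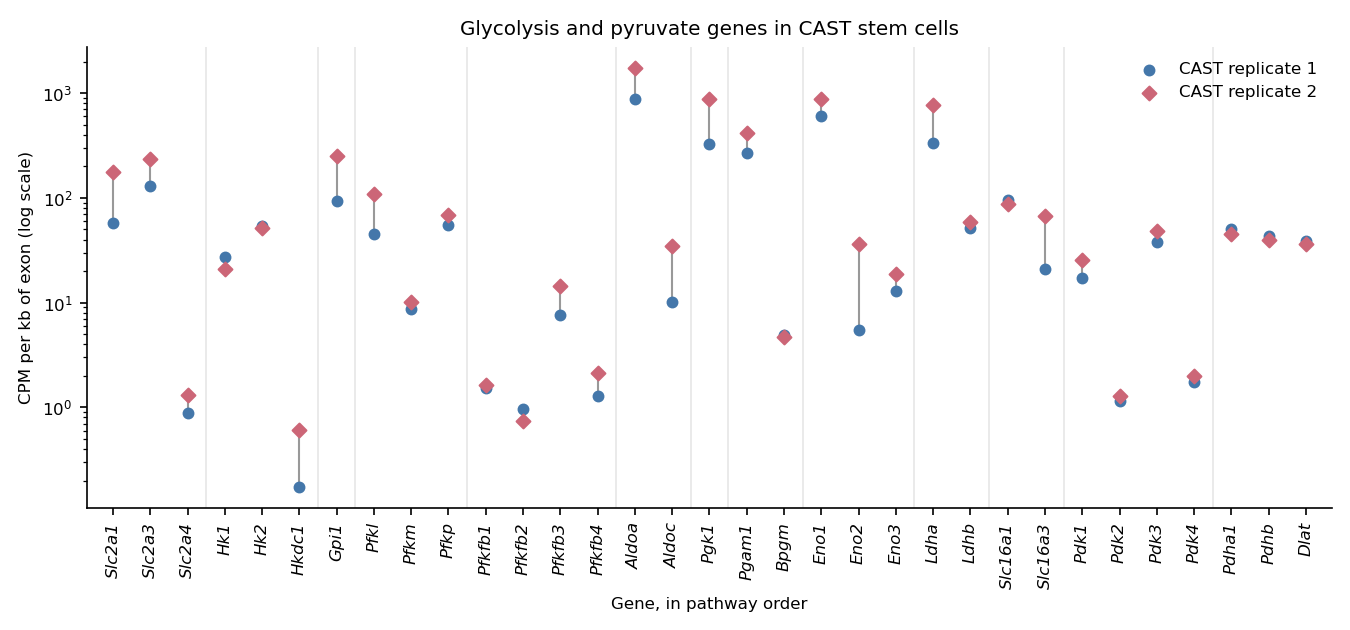
Level of each of the 33 genes in CPM per kilobase of exon (log axis) in CAST replicate 1 (circles) and replicate 2 (diamonds), ordered from glucose uptake to pyruvate dehydrogenase, with grey lines between steps. Aldoa, Eno1, Pgk1 and Ldha stand highest, and Eno2 has the longest line between its points, from 5.53 to 36.6.

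Glucose enters through transporters of the Slc2a family. Slc2a3, a high-affinity transporter typical of neurons and early embryos, had 944 CPM in replicate 1 and 1683 in replicate 2, a mean of 1313 ± 523 (SD, n = 2). Slc2a1, the transporter of most proliferating cells, had 203 and 618 CPM. Slc2a4, the insulin-responsive transporter of muscle and fat, had 3.04 and 4.59 CPM. Per kilobase, Slc2a3 made up 69.0% of the 3 genes in replicate 1 and 56.7% in replicate 2, and Slc2a1 made up 30.6% and 43.0%. The ratio of replicate 2 to replicate 1, computed on effective library sizes, was 3.18-fold for Slc2a1 (95% exact interval 3.05 to 3.32) and 1.86-fold for Slc2a3 (1.82 to 1.90). Both were higher in replicate 2.

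Hexokinase traps glucose in the cell as glucose 6-phosphate, and it was one of 2 of the 13 steps whose summed level was lower in replicate 2. The summed level was 550.2 CPM in replicate 1 and 491 CPM in replicate 2, a ratio of 0.930 (0.9001 to 0.961). Hk2, the isoenzyme of muscle and of many tumours, had 318 and 309 CPM. Hk1, the isoenzyme of brain and red blood cells, had 231 and 179 CPM, so that replicate 2 was lower. Its ratio was 0.808 (0.766 to 0.851). Hk2 led the family with 66.2% and 70.6% of counts per kilobase. Hkdc1, a hexokinase-like gene, stood at 0.899 and 3.13 CPM, a ratio of 3.63 with a wide interval (1.92 to 7.36).

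Gpi1, which converts glucose 6-phosphate to fructose 6-phosphate (chromosome 7 of GRCm38, 34201330 to 34230336), had 606 CPM in replicate 1 and 1623 in replicate 2. The ratio was 2.79-fold (2.72 to 2.86). Phosphofructokinase, the committed step, follows it and was the family whose leading gene differed between the libraries. Pfkp, named for platelets, had 734 CPM in replicate 1 and 919 in replicate 2. Pfkl, named for liver (chromosome 10, 77986947 to 78010083), had 299 and 722 CPM. Per kilobase, Pfkp held 50.6% in replicate 1 and 36.7% in replicate 2, while Pfkl held 41.4% and 57.9%. By counts with no division by length, Pfkp led in both libraries, with 69.1% and 54.9%. Pfkm, the muscle gene, had 29.0 and 33.7 CPM. The Pfkfb genes encode the enzymes that make and remove the activator of phosphofructokinase. Pfkfb3, whose product mainly makes the activator, led them with 57.4 and 109 CPM, and its ratio of 1.98-fold (1.82 to 2.16) stood just under 2-fold. Pfkfb4 had 6.22 and 10.3 CPM, Pfkfb1 6.09 and 6.63, and Pfkfb2 6.98 and 5.32.

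Aldolase, phosphoglycerate mutase and enolase each drew nearly all counts per kilobase from 1 gene. Aldoa (chromosome 7, 126795234 to 126800751) held 98.9% of aldolase counts per kilobase in replicate 1 and 98.1% in replicate 2. Its level was 2567 CPM in replicate 1 and 5059 in replicate 2, a ratio of 2.05-fold (2.03 to 2.08). Aldoc, the aldolase of brain (chromosome 11, 78322968 to 78327781), had 33.1 and 112 CPM, a ratio of 3.53-fold (3.18 to 3.92). Pgk1 (chromosome X, 106187100 to 106203699) had 730.5 and 1961 CPM, a ratio of 2.80-fold (2.73 to 2.86). Pgam1 had 536 and 817 CPM and held 98.2% and 98.9% of its pair. Its partner Bpgm, which makes the haemoglobin ligand 2,3-bisphosphoglycerate in red blood cells, had 17.7 and 17.0 CPM. The 2 libraries were alike in Bpgm, with a ratio of 0.999 (0.833 to 1.20).

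The widest gap between the libraries among the 33 genes was that of an enolase. For Eno2, the neuronal enolase (chromosome 6, 124760053 to 124769673), the counts were 376 and 2364, equal to 26.0 and 172 CPM. The ratio was 6.90-fold (6.18 to 7.71), and it ranked 3 among the 9926 genes whose mean reached 5 CPM. Eno1 had 3282 and 4764 CPM, a ratio of 1.51-fold (1.49 to 1.53). Eno3, the muscle enolase, had 22.5 and 32.7 CPM, a ratio of 1.52-fold (1.31 to 1.75). Eno1 still held 97.1% of enolase counts per kilobase in replicate 1 and 94.1% in replicate 2, with Eno2 at 0.879% and 3.89%.

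Pyruvate leaves glycolysis by several routes. Of the 4 genes for lactate formation and transport, Ldha and Slc16a3 were at least 2-fold higher in replicate 2, against 4.13% of all genes. The list was chosen on this contrast. Ldha (chromosome 7, 46841475 to 46855627) had 1108 CPM in replicate 1 and 2542 in replicate 2, a ratio of 2.39-fold (2.34 to 2.43). Ldhb, the heart subunit that favours the reverse reaction, had 80.8 and 92.3 CPM, a ratio of 1.19 (1.10 to 1.29). Ldha made up 86.7% and 92.9% of the pair per kilobase. The exporters of lactate showed the largest shift in share. Slc16a3, the exporter of strongly glycolytic cells (chromosome 11, 120948480 to 120960868), had 111 and 355 CPM, a ratio of 3.33-fold (3.14 to 3.52). Slc16a1, which carries lactate in both directions, had 426 and 390.0 CPM, a ratio of 0.953 (0.919 to 0.989). The share of Slc16a3 in the pair was accordingly 17.8% in replicate 1 and 43.1% in replicate 2, a difference of 25.3 percentage points.

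The pyruvate dehydrogenase complex was close to level between the libraries. Pdha1 and Pdhb, the subunits of the decarboxylase of the pyruvate dehydrogenase complex, had 187 and 168 CPM and 167 and 154 CPM in replicates 1 and 2. Dlat, its acetyltransferase, had 188 and 179 CPM. The complex was the other step with a lower summed level in replicate 2, with a ratio of 0.961 (0.930 to 0.993). Among the kinases that inhibit it, Pdk1, a known HIF1 target, had 132 and 198 CPM, a ratio of 1.56-fold (1.47 to 1.65). Pdk3 had 97.5 and 124 CPM, a ratio of 1.32-fold (1.23 to 1.42). Pdk3 led the kinases per kilobase with 65.6% and 62.7%, but by counts alone Pdk1 led with 55.2% and 59.5%. Pdk2 had 3.67 and 4.08 CPM, and Pdk4, the kinase of fasting muscle and heart, had 6.15 and 6.92.

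**Figure D2:**
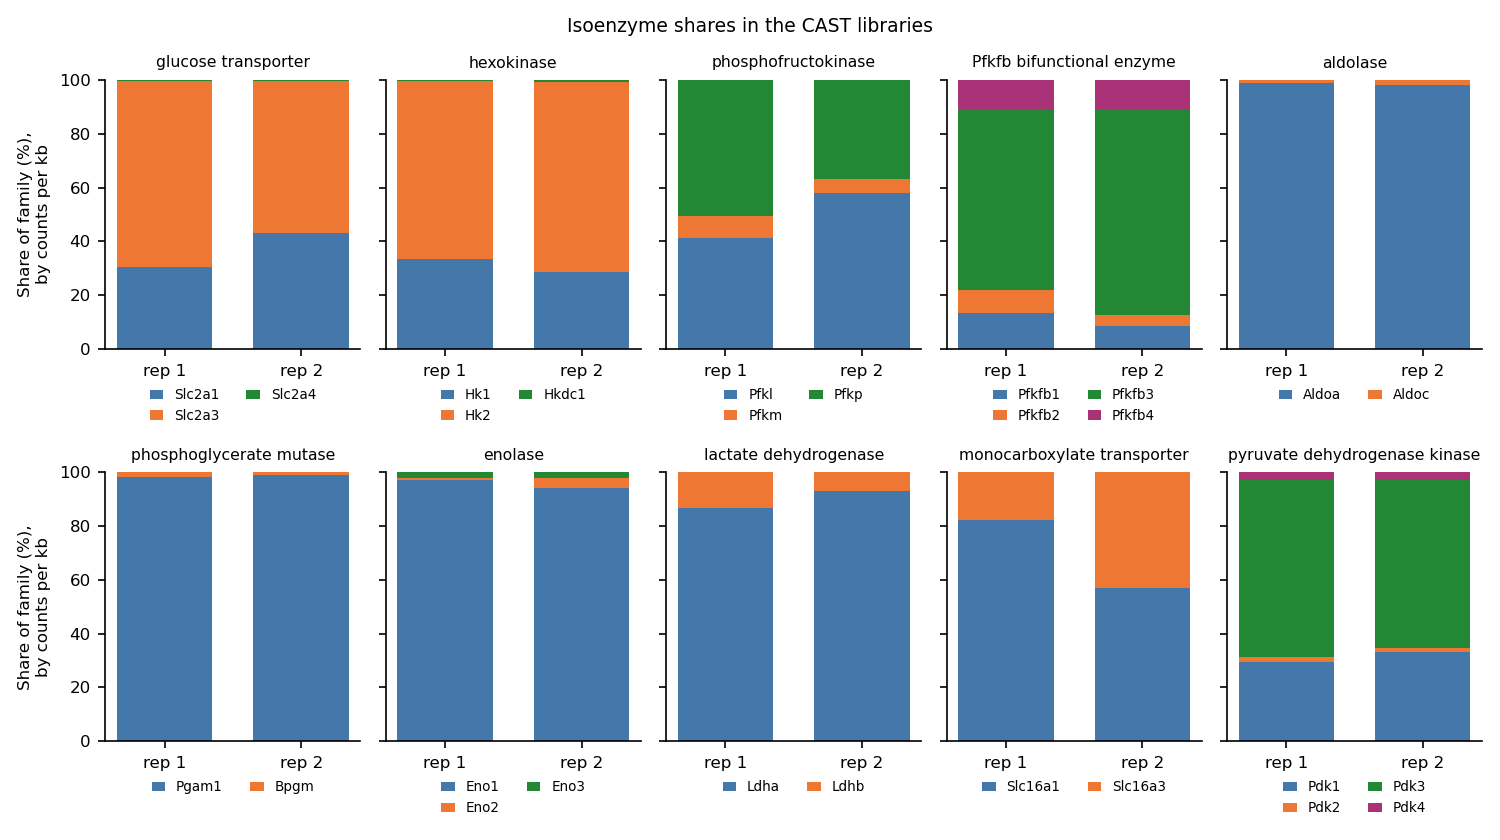
Share of each isoenzyme (%, stacked bars) in the summed counts per kilobase of its family in CAST replicates 1 and 2, for 10 families. Aldolase, phosphoglycerate mutase and enolase are each nearly all of 1 gene, while Slc16a3 goes from 17.8% to 43.1% and Pfkl from 41.4% to 57.9%.

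The leading gene was the same in both libraries, and with counts per kilobase, counts alone or the longest transcript as the length, in 8 of the 10 families. Phosphofructokinase and the pyruvate dehydrogenase kinases were the other 2. No member shared a stretch of 75 bases with another member in the GENCODE M21 transcripts of GRCm38, so that an exact match of that length belongs to 1 isoenzyme. Of the 33 members, 21 shared no such stretch with any other gene. Pgk1 shared 52.8% of its stretches with 4 pseudogenes, Pgam1 34.9% with 2 and Eno1 23.0% with 5 pseudogenes and 1 other gene. The levels of these 3 genes are uncertain. Pfkfb2 (15.2%), Ldhb (12.6%), Pfkm (8.13%) and Pdhb (6.86%) shared smaller parts, each with 1 other gene. Of the 10 members at least 2-fold apart, 9 shared under 5%, as did most of the 33 members. Exons of 9 members overlap a gene on the opposite strand, and the strand setting of the counting is not given in the sources used here.

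On the log2(CPM + 0.5) scale with effective library sizes, 10 of 33 members were at least 2-fold higher in replicate 2 and 0 were at least 2-fold lower. Of all 13824 genes with at least 10 counts in total, 4.13% were that much higher and 4.98% that much lower. Where the mean had to reach 5 CPM, a minimum set after seeing the data, 9 of 30 members were at least 2-fold higher, against 2.28% of 9926 genes, and 0 were lower, against 3.18%. These shares use the contrast on which the list was chosen, so nothing is read from them. The 10 genes were Eno2, Aldoc, Slc16a3, Slc2a1, Pgk1, Gpi1, Hkdc1, Pfkl, Ldha and Aldoa. Closest to the limit were Aldoa, inside it with a log2 ratio of 1.04, and Pfkfb3 (0.98) and Slc2a3 (0.89), outside it. With library totals in place of TMM scaling Aldoa fell to 0.98. The median log2 ratio over the 33 genes was 0.59, and that over all 13824 genes was -0.0046. Counted by sign alone, 26 members were higher in replicate 2 and 7 lower. For 22 the counting interval lay above a ratio of 1, for 3 (Hk1, Slc16a1 and Pdha1) below it, and for 8 it held 1. The matching shares over all genes were not computed, so nothing is read from these counts by sign and interval. With 1 library on each side these ratios have no replicate check.

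**Figure D3:**
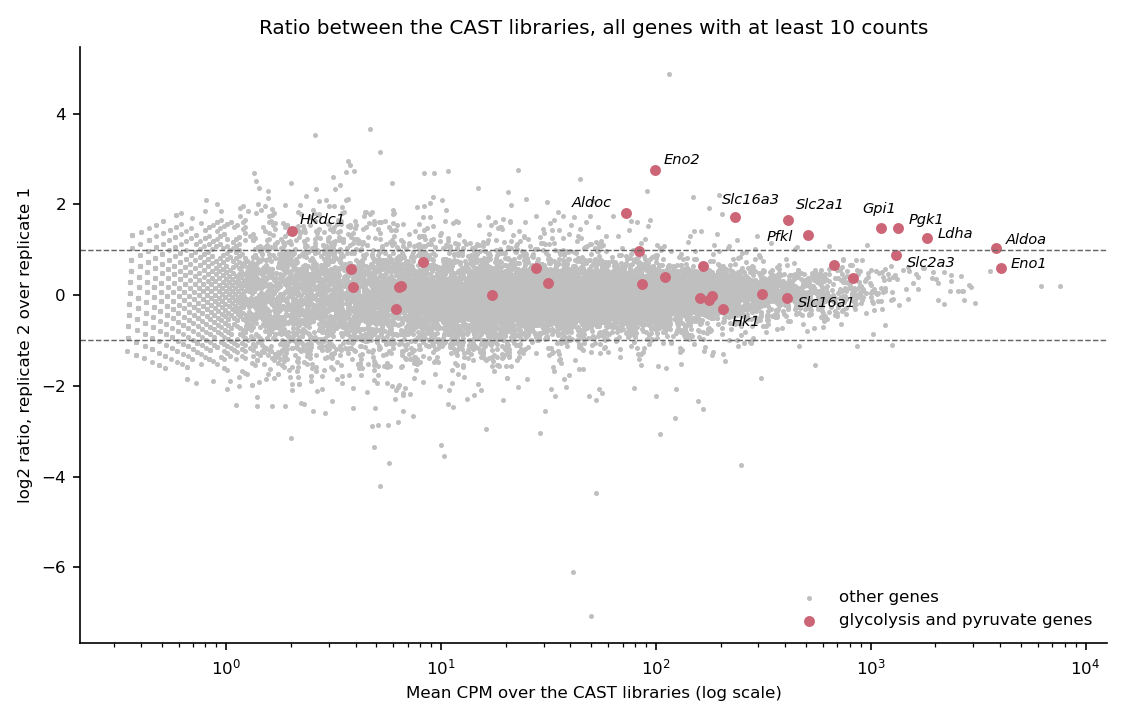
Log2 ratio of CAST replicate 2 to replicate 1 against mean CPM (log axis) for 13824 genes (grey) and the 33 glycolysis and pyruvate genes (red), with dashed lines at 2-fold. The 10 members above the upper line run from Hkdc1 at 2.02 CPM to Aldoa at 3813 CPM, and none lies below the lower line.

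The neighbouring pathways were described from 8 further lists of 78 genes, of which 74 were analysed and 67 had at least 10 counts. Of these, 4 were at least 2-fold higher in replicate 2, against 4.13% of all genes, and 2 lower, against 4.98%. These shares lie near the background, and the median log2 ratio of the 67 genes was 0.07. The citrate cycle, which burns acetyl-CoA, had 0 of 13 genes past 2-fold and a median of 0.20. The pentose phosphate pathway, a branch from glucose 6-phosphate that supplies NADPH and ribose, had 0 of 7 and a median of 0.01. Genes of pyruvate import and of the remaining dehydrogenase subunits and phosphatases had 0 of 7 and a median of 0.12. Their log2 ratios ran from -0.60 for Pdp1, a pyruvate dehydrogenase phosphatase with 15.6 and 9.76 CPM, to 0.61 for Mpc1, a subunit of the mitochondrial pyruvate carrier with 7.54 and 11.3 CPM. Both were named after their values were seen. Gluconeogenesis had 0 of 4 and a median of -0.42, which was -0.08 when genes with at least 1 count were kept. The glycerol phosphate and malate shuttles had 1 of 6 lower and a median of -0.09. The lower gene was Gpd1, which had a mean under 5 CPM and was named after its values were seen.

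Of these 8 lists, that of glycogen and glucose side branches had the highest median log2 ratio, 0.67. In it, 2 of 8 genes were at least 2-fold higher in replicate 2, against 4.13% of all genes. Gys1, the glycogen synthase of muscle and most tissues, had 34.6 CPM in replicate 1 and 82.4 in replicate 2, a ratio of 2.48-fold (2.23 to 2.76). Pygl, the liver glycogen phosphorylase, had 9.34 and 40.3 CPM, a ratio of 4.49-fold (3.72 to 5.47). Pygb, the brain phosphorylase, was lower, with 98.2 and 70.4 CPM and a ratio of 0.747 (0.688 to 0.811), and was named after its values were seen. Among isoenzymes outside the list, 5 of 12 had fewer than 10 counts in total.

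Of 15 regulators, 1 was at least 2-fold higher in replicate 2, against 4.13% of all genes, and 1 lower, against 4.98%, with a median log2 ratio of -0.24. Vhl, which marks HIF proteins for destruction, had 36.7 and 76.2 CPM, a ratio of 2.16-fold (1.95 to 2.40). Myc, a transcription factor known to activate glycolysis genes, was counted 422 times in replicate 1 and 44 times in replicate 2, a ratio of 0.114 (0.0819 to 0.156). Hif1a, the oxygen-regulated subunit of HIF1, which is controlled mainly at the protein level, had 116 and 84.4 CPM. Egln1 and Egln3, the oxygen sensors that mark HIF for Vhl, had 36.7 and 69.6 CPM and 66.7 and 112 CPM. Egln2, of the same family, went the other way, with 51.2 and 33.1 CPM. Of other HIF pathway genes in the list, Epas1 had 261 and 204 CPM, Hif1an 84.2 and 62.8, and Arnt 88.4 and 104. Apart from Vhl and Myc, these regulators were named after their values were seen.

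Of the 15 fibroblast markers, 7, among them the collagens Col1a1, Col1a2, Col3a1 and Col5a1, were at least 2-fold lower in replicate 2, against 4.98% of all genes, and 0 were higher. The other 8 did not pass 2-fold, and Dcn, Pdgfrb and Sparc had ratios of 1.03, 1.12 and 0.973. The list had a range of log2 ratios from -2.22 to 0.15 and a median of -0.92. The part of the cells that made these transcripts, and of the batch, in the ratios of the glycolysis genes was not tested.

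**Figure D4:**
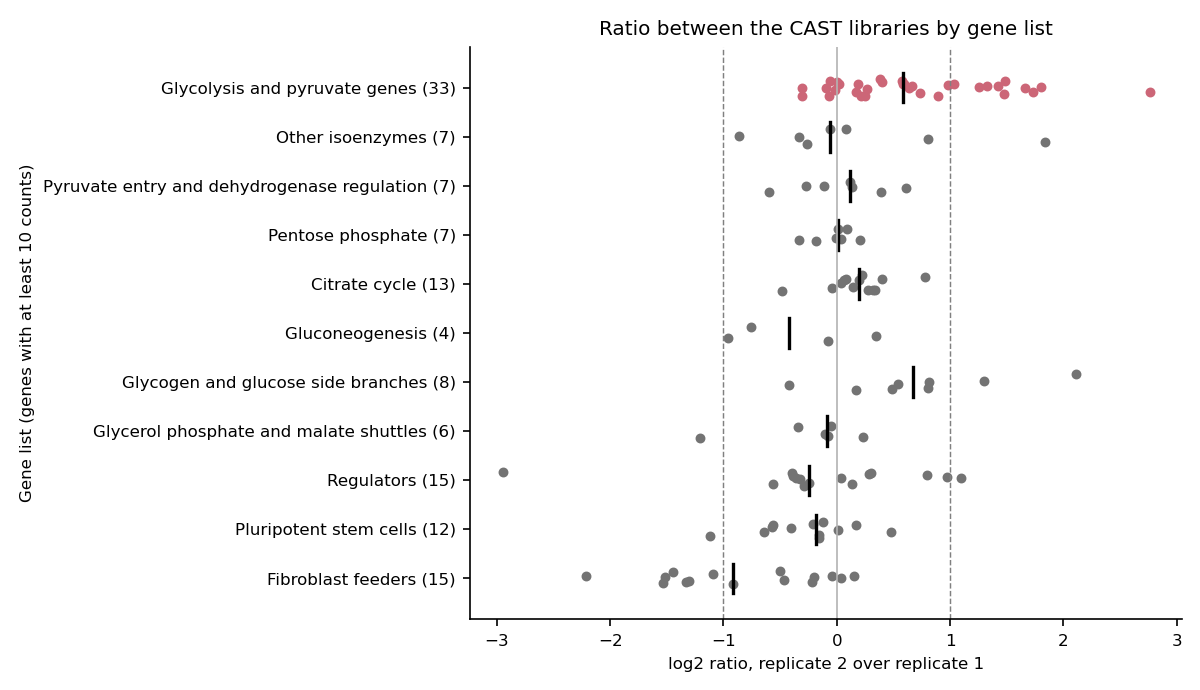
Log2 ratio of CAST replicate 2 to replicate 1 for each gene with at least 10 counts (points), by list, with the number of genes in parentheses, the median of each list as a black bar and dashed lines at 2-fold. The glycolysis and pyruvate genes (red, median 0.59) and the glycogen and glucose side branches (median 0.67) lie to the right, and the fibroblast feeder markers (median -0.92) to the left.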

How the data were processed

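Poly(A) RNA-seq of 2 CAST stem cell libraries was used. The authors deposited counts of reads per gene without normalization. The submitters' processing notes for these libraries name TopHat2 2.1.1, SAMtools and HTSeq with GRCm38, while the study's methods name STAR on the strain's own genome, with reads at more than 1 locus discarded. Which made the counts was not settled, and mapping CAST reads to GRCm38 could lower counts at divergent genes. Another 7 per-sample columns of the table match no listed sample and were not used.

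CPM was computed on the plain total of each library. Ratios used TMM effective library sizes from edgeR 4.0.16 (R 4.3.3), log2(CPM + 0.5) and a minimum of 10 counts over both libraries, and a gene counted as apart at 2-fold. Adding 0.5 CPM understates ratios of low genes. Fold ratios with intervals carry no pseudocount and use exact 95% binomial intervals. Lengths and positions came from GENCODE M21 (GRCm38). With 1 group of 2 libraries no test was run. Members and lists were chosen with earlier results of these data known. All 36 members were to be named, and, of the other lists, genes at least 2-fold apart with a mean of at least 5 CPM. Alternatives were library totals, DESeq2 1.42.0 size factors, other filters, pseudocounts and lengths. Promoter sequences were not analysed here, and some genes of the lists are not reported here. The calculation of ratios was tested on simulated counts. Under Python 3.11.15, tables were made with pandas 2.3.3 and numpy 2.4.6, intervals with scipy 1.17.1 and plots with matplotlib 3.10.9.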

Additional observations from a re-analysis of the deposited data

How the results depend on the processing

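The number of members at least 2-fold higher in replicate 2 (10) was 9 or 10 under 9 alternatives, the number lower was 0 under each, and the median log2 ratio (0.59) lay between 0.53 with library totals and 0.60. Aldoa was no longer past 2-fold with library totals (0.98) and Hkdc1 not with a pseudocount of 2 CPM (0.85). Leaving out a library leaves no ratio. It moved the mean CPM by over 1.5 times for Aldoc, Eno2, Gpi1, Hkdc1, Ldha, Pfkl, Pgk1, Slc16a3 and Slc2a1, whose values in each library are given above, and the share of all counts from 1.83% to between 1.32% and 2.34%.

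The shares of leading isoenzymes depended on the length used. With counts alone the mean share was 77.6% for Slc2a3 (62.8% per kilobase of exon), 60.4% for Hk2 (68.4%), 35.6% for Pfkl (49.6%), 79.0% for Pfkfb3 (71.6%), 97.4% for Pgam1 (98.5%), 94.9% for Ldha (89.8%) and 38.9% for Pdk3 (64.2%). With the longest transcript it was 54.1% for Hk2, 99.0% for Aldoa (98.5%), 97.9% for Pgam1 and 59.8% for Pdk3. The median log2 ratio of the gluconeogenesis genes (-0.42) was -0.33 with a pseudocount of 2 CPM and -0.08 with a minimum of 1 count. The length that the counted reads cover was not tested. The alternative without Gapdh and Pkm and the promoter motifs were not run. No paired analysis was possible because only 1 group was analysed here. At this depth Hkdc1, Slc2a4 and Pdk2 have wide counting intervals.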
